A study of Homo sapiens with 6 samples.

Results

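The comparison put a pair of questions to the genes of A549 cells in which CNOT3 was lowered by either of 2 hairpins: which genes differed more with the hairpin that left less CNOT3 mRNA, and which moved in opposite directions. For each gene, the log2 change with doxycycline (DOX) in the line shCNOT3-2 was set against the same change in the line shCNOT3-1. A gene was read from its brightest probe set annotated to a single gene, and was kept where its mean log2 intensity over the 6 arrays was at least 6. This kept 12569 of 19775 genes. At that limit FAM20A (mean log2 6.0) was the dimmest gene kept, with changes of -0.09 in shCNOT3-1 and 0.51 in shCNOT3-2, and PTTG2, at 6.0 after rounding and just below the limit, had 0.09 and 1.91.

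The cells were A549, a human non-small cell lung cancer line, made into 3 stable sublines by lentivirus. Every subline carried a tetracycline-inducible hairpin: a non-targeting one in A549-T-shNTC, and 1 of 2 sequences against CNOT3 in A549-T-shCNOT3-1 and A549-T-shCNOT3-2. Each subline was grown for 72 hours with DOX at 1 ug/ml, which switches the hairpin on, and without it, labelled (-). Each of the 6 combinations is 1 array, so there are no replicates, no test was possible and every value below is that of a single array or a difference between arrays. The sources used here do not give whether a subline was 1 clone or a pool of infected cells, and the hairpin sequences were not analysed here. With 2 hairpins in 2 sublines, the depth of knockdown, the hairpin and the subline cannot be told apart.

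On all 6 arrays the median intensity was 64.9 to 72.8, and Pearson's r between arrays over the genes kept was 0.954 to 0.983. The epithelial keratins KRT8 and KRT18 and the A549-typical enzymes AKR1B10, AKR1C1 and ALDH1A1 had intensities of 28769 or more on every array. EPCAM was the dimmest epithelial marker, at 132 to 372, which overlaps the ranges of CD14, PECAM1 and COL1A1 given below. All 6 epithelial and all 4 A549 markers passed the brightness limit. Of the 11 markers of leukocytes, endothelium and fibroblasts, 3 did, and CD68 had no value here. The defining markers PTPRC (15.6 to 38.0) and CDH5 (2.29 to 17.3) lay far below the array medians, while CD14 (144 to 265), PECAM1 (107 to 277) and COL1A1 (349.9 to 553) lay above them. Their part in the results was not tested. Of 6 lung markers, 4 passed the brightness limit, and SFTPA1 had no value here. SFTPB, at 166 to 283, lay above the array medians, while the ranges of SFTPC (40.7 to 221) and NKX2-1 (14.6 to 134) reached from below to above them. RNA integrity can be read from ACTB, as its 3' signal over its 5' signal. This ratio was 1.33 without and 1.42 with DOX in shCNOT3-1, 1.36 and 1.45 in shCNOT3-2, and 1.58 and 1.47 in shNTC. The ACTB ratio thus moved alike in both knockdown sublines. The same ratio of GAPDH was 0.980 and 1.03 in shCNOT3-1, 1.09 and 1.05 in shCNOT3-2, and 0.980 and 0.966 in shNTC, so it moved in opposite directions with the 2 hairpins. The part of either in the results was not tested.

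CNOT3 belongs to the NOT module of the CCR4-NOT complex, the main cytoplasmic deadenylase, which trims the poly(A) tail and so starts the decay of an mRNA. Recruiting proteins such as ZFP36, the Pumilio proteins and the microRNA machinery bring the complex to chosen mRNAs. Many mRNAs of cytokines, immediate early factors and feedback inhibitors have short lives and are classic substrates of this route.

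Both hairpins came with less CNOT3 signal. On its brightest probe set, CNOT3 read 227 and 81.9 in shCNOT3-1, 228 and 46.9 in shCNOT3-2, and 178 and 166 in shNTC. Here and below, each pair of readings gives the array without DOX first and the array with DOX second. Both DOX arrays of the knockdown sublines were thus below all 4 others, and 36.1% of the signal was left in shCNOT3-1 against 20.5% in shCNOT3-2. The log2 changes were -1.46, -2.26 and -0.10, so that of shCNOT3-2 was 1.55 times that of shCNOT3-1. The order did not hold on every probe set. A second one read 127 and 28.4 in shCNOT3-1, 195 and 41.1 in shCNOT3-2, and 259 and 95.6 in shNTC. There the changes of the hairpins, -2.13 and -2.22, were nearly equal, and the control subline was also lower with DOX, by -1.43. The remaining one was dim, below the brightness limit, and read 85.5 and 31.9 in shCNOT3-1 and 43.6 and 6.12 in shCNOT3-2, with changes of -1.40 and -2.65. In shNTC it read 4.54 and 8.18, about as low as shCNOT3-2 with DOX. So 2 of 3 probe sets, 1 of them this dim one, put shCNOT3-2 as the stronger hairpin, and that name rests on them.

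**Figure D1:**
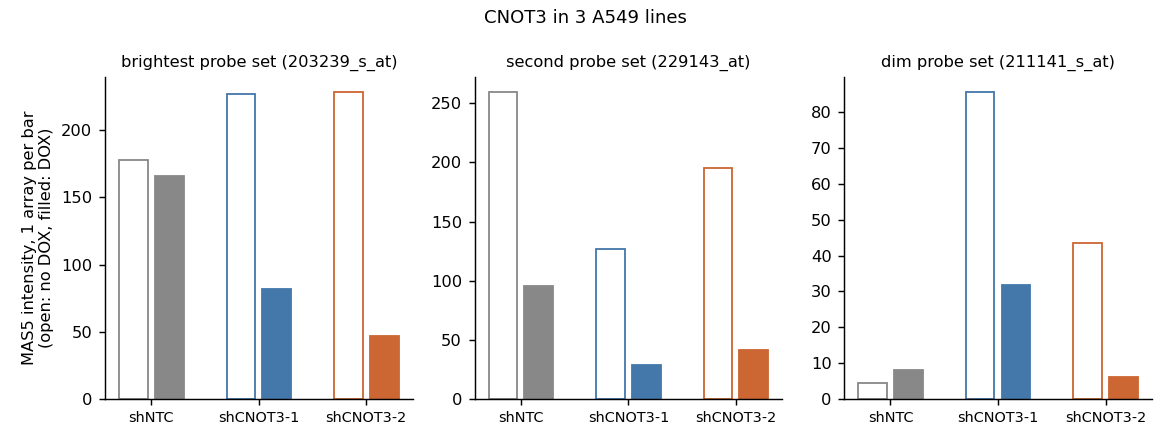
MAS5 intensity of CNOT3 (linear axes from 0, a separate scale per panel) on its 3 probe sets, 1 array per bar, open without DOX and filled with DOX. On the brightest probe set shCNOT3-2 with DOX is lowest at 46.9 and shCNOT3-1 follows at 81.9, while on the second the remaining shares of both hairpins are alike.

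Across genes, a deeper response in shCNOT3-2 was not seen. Genes that shNTC moved the same way by at least 0.5 times the smaller hairpin change were left out of this count. Of the other 443 genes at least 0.5 higher on the log2 scale in both knockdown sublines, 206 (46.5%) had the larger change in shCNOT3-2. The median ratio of the changes was 0.948. Of 403 genes at least 0.5 lower in both, by the same rule, 206 (51.1%) had the larger change in shCNOT3-2, with a median ratio of 1.01. The split stayed near even among brighter genes, at 56.4% of 94 higher and 49.6% of 115 lower genes with a mean log2 of at least 10. The ratio of 1.55 for CNOT3 on its brightest probe set was above these medians. Genes past the same 0.5 limit were about as many with either hairpin: 15.1% higher and 13% lower in shCNOT3-1, 14.9% and 12.7% in shCNOT3-2, and 8.82% and 10.6% in shNTC.

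The changes with the 2 hairpins correlated weakly over the 12569 genes, with a Pearson's r of 0.27 and a Spearman's rho of 0.28, given as a description since genes are not replicates. Changes of shNTC correlated with neither, at r of -0.03 and -0.01. These 3 changes share no array. The likeness of the hairpins moved with brightness: r was 0.14 at a mean log2 of 6 to 7 and 0.40 at 10 to 12. The SD over genes of the difference between hairpins was 1.11 in the first of these and 0.47 in the second, beside 0.79 and 0.32 for the shNTC change. In bulk RNA, fewer cells with a transcript and less of it per cell cannot be told apart.

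Genes were then sorted into classes by their changes. Genes were called larger in 1 hairpin where both changes had 1 sign, the larger was at least 1 (2-fold), the smaller at least 0.5, the step between them at least 0.5, and shNTC moved that way by less than 0.5 times the smaller. In that way 53 genes (0.422% of all) were higher and 44 (0.35%) lower with the larger change in shCNOT3-2. With the larger change in shCNOT3-1, 53 (0.422%) were higher and 55 (0.438%) lower. The same rule with shNTC in the place of a hairpin gave 10 to 28 genes per class. Even genes, at least 2-fold in both and within 0.5 of each other, numbered 56 higher (0.446%) and 33 lower (0.263%), against 4 to 12 with shNTC in a hairpin's place. Genes at least 2-fold in opposite directions were few: 19 (0.151%) higher in shCNOT3-2 and lower in shCNOT3-1, and 12 (0.0955%) the other way. With shNTC in the place of shCNOT3-1 these 2 counts were 28 and 14. With shNTC in the place of shCNOT3-2, they were 18 and 27.

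**Figure D2:**
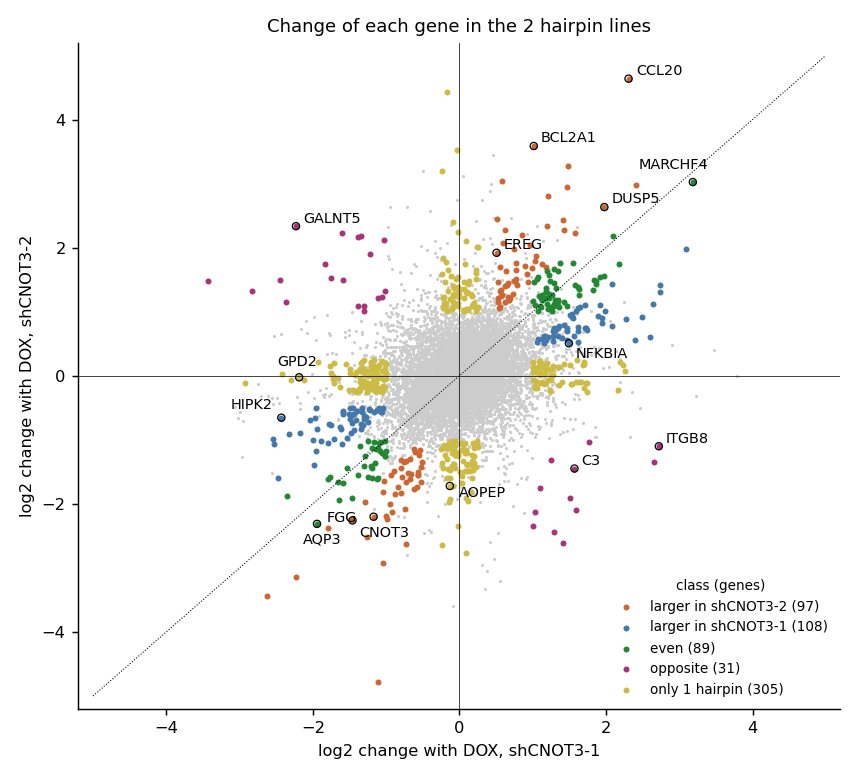
Log2 change with DOX of each of 12569 genes in shCNOT3-1 (horizontal) and shCNOT3-2 (vertical), 1 point per gene, coloured by class, with the line of equal change dotted. The even and graded classes lie along the diagonal on both of its sides, and the 31 opposite genes lie in the other quadrants.

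Other probe sets of the same genes did not choose the class and read other parts of the transcript on the same arrays. Over all 6034 genes with another probe set, 63.1% repeated the order of the 2 changes. Among genes higher with more in shCNOT3-2 it was 12 of 14, and among those lower with more in shCNOT3-2, 12 of 18. For larger changes in shCNOT3-1 the counts were 9 of 12 higher and 23 of 29 lower genes. The class itself, with its fold limits, was repeated in fewer: 1 of 14, 5 of 18, 2 of 12 and 5 of 29. Of even genes, it was repeated in 3 of 16 higher and 0 of 18 lower ones. For genes lower with more in shCNOT3-2, the median difference between hairpins was -0.83 on the first probe set and -0.09 on the other. Of the opposite genes only 4 had another probe set, and it repeated the order in 2 of these.

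Among genes higher with more in shCNOT3-2, the leading one was BCL2A1, an anti-apoptotic relative of BCL2. It read 81.1 and 165 in shCNOT3-1, 74.3 and 904 in shCNOT3-2, and 78.7 and 106 in shNTC. The shCNOT3-2 array with DOX stood far above the other 5, a 12-fold difference within the subline against 2.02-fold in shCNOT3-1. CCL20, a chemokine that draws immature dendritic cells and lymphocytes, read 246 and 1225 in shCNOT3-1 and 192 and 4809 in shCNOT3-2. It was lower with DOX in shNTC, at 189 and 18.7. Its log2 changes of 2.31 and 4.64 were among the widest apart of the class, and both DOX arrays with a CNOT3 hairpin exceeded all others. EREG, the EGF receptor ligand epiregulin, was bright: 2804 and 3985 in shCNOT3-1, 2945 and 11147 in shCNOT3-2, and 2508 and 2860 in shNTC. The sublines started alike, and the array of shCNOT3-2 with DOX was the highest.

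EDN2, the vasoactive peptide endothelin 2, was 2.75-fold higher in shCNOT3-1 and 7.74-fold higher in shCNOT3-2. LY6K, a surface protein of the LY6 family, was 1.5-fold and 8.20-fold higher. KLK4, a serine protease, and ANPEP, aminopeptidase N, differed by 4.84-fold and 4.22-fold in shCNOT3-2 but started there at 0.261 and 0.373 times the shCNOT3-1 intensity. With DOX, KLK4 read 313 in shCNOT3-1 and 258 in shCNOT3-2, and ANPEP 166 and 174. Their larger changes in shCNOT3-2 thus lay mostly in the lower starts. The next brightest KLK4 probe set gave -0.56 and 0.25. LRRC61, a leucine-rich repeat protein, likewise started at 0.291 times, and with DOX read 186 in shCNOT3-1 and 163 in shCNOT3-2. In the whole class, 12 of 53 genes were at least 2-fold lower in shCNOT3-2 than in shCNOT3-1 without DOX, against 229 of all 12569. The arrays without DOX also enter the changes that set the class, so the rule itself favours such starts. Other members, chosen through the gene lists, were DUSP5, a nuclear ERK phosphatase, with changes of 1.98 and 2.63, and TNIP1, a binding partner of the NF-kB inhibitor A20, with 0.67 and 1.45.

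Genes lower with more in shCNOT3-2 had starting levels that were alike, with 1 of 44 at least 2-fold apart without DOX. TSPAN13, a tetraspanin, read 5046 and 2674 in shCNOT3-1, 5402 and 1240 in shCNOT3-2, and 5537 and 6701 in shNTC. The order from the control through shCNOT3-1 to shCNOT3-2 was the order of CNOT3 on its brightest probe set. FOXO3, a forkhead transcription factor, read 1169 and 761 in shCNOT3-1, 1196 and 350 in shCNOT3-2, and 1323 and 1413 in shNTC. Its changes were -0.62 and -1.77, and on both other probe sets they were -0.71 and -1.39, and -0.66 and -1.82. All 3 FOXO3 probe sets thus gave the larger change in shCNOT3-2.

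IFITM3, an antiviral membrane protein, read 1091 and 548 in shCNOT3-1, 1131 and 240 in shCNOT3-2, and 1151 and 1256 in shNTC. Its near-copy IFITM2 followed it, with changes of -0.73 and -1.33, and cross-reading between these related genes by the probes leaves the split between them uncertain. MGAT4A, which branches N-glycans, had the widest step, at -1.11 and -4.77, but its last array read only 4.54. RARS1, arginyl-tRNA synthetase, was 9822 and 6576 in shCNOT3-1 and 9280 and 2794 in shCNOT3-2. The shNTC array without DOX, at 2757, was as low as that, so the 6 arrays do not fall in the order of CNOT3.

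The 3 chains of fibrinogen, the clotting protein that liver secretes, were in this class. FGA, the fibrinogen alpha chain, read 957 and 573 in shCNOT3-1, 961 and 227 in shCNOT3-2, and 1175 and 3726 in shNTC. FGB and FGG, the other chains of fibrinogen, had changes of -1.30 and -1.98, and of -1.17 and -2.20. All 3 chains were lower with both hairpins and more so with shCNOT3-2, while all 3 were higher with DOX in shNTC, by 1.66, 1.53 and 1.15. A second FGA probe set gave -1.5 and -2.72. C4BPA, a complement inhibitor, had -0.80 and -1.84, and LINC00261, a non-coding RNA next to FOXA2, had -0.95 and -2.0. BAMBI, a decoy receptor of TGF-beta signalling, had -0.60 and -1.19.

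Genes higher with more in shCNOT3-1 were led by dim ones. RHCG, an ammonium transporter, read 69.7 and 438 in shCNOT3-1, 119 and 260 in shCNOT3-2, and 140 and 133 in shNTC. SARM1, an NAD-cleaving enzyme of axon loss, read 166 and 805, 176 and 327, and 172 and 176. The 4 arrays of SARM1 without knockdown agreed closely, and its other probe set gave 0.99 and 0.23. CYP3A4, the main drug-oxidising cytochrome P450 of liver, was 8.49-fold and 3.94-fold higher from low starts of 39.7 and 40.7, but shNTC was at 204 and 230, within the range of the induced arrays. NFKBIA, the NF-kB inhibitor IkB-alpha, was bright, with 2802 and 7891 in shCNOT3-1, 3414 and 4851 in shCNOT3-2, and 3480 and 3358 in shNTC. It differed by 2.82-fold in the weaker hairpin and by 1.42-fold in the stronger.

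Among genes lower with more in shCNOT3-1 was HIPK2, a kinase that phosphorylates p53. It read 3976 and 737 in shCNOT3-1, 4964 and 3151 in shCNOT3-2, and 4857 and 6145 in shNTC. All 6 other HIPK2 probe sets gave the larger change in shCNOT3-1, at -0.96 to -2.02 there and -0.02 to -0.94 in shCNOT3-2. ABHD13, a hydrolase, had -2.54 and -1.06 and on its other probe set -1.76 and -0.75. SELENOF, a selenoprotein of the endoplasmic reticulum, read 7023 and 1794, 6700 and 4241, and 5533 and 4916. FBXO45, a ubiquitin ligase subunit, read 1177 and 389, 1342 and 915, and 1417 and 1752. In both, the shCNOT3-1 array with DOX was the lowest of the 6 by a wide margin, and the shCNOT3-2 array with DOX came next. ASB4, a SOCS-box protein, had -2.04 and -0.69, CDKN2D, a CDK4 inhibitor, -1.94 and -0.84, and PCMTD1 -1.78 and -0.75. For ASB4 and PCMTD1 at least 1 other probe set gave the reverse order.

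Even genes show what both hairpins shared. PLAU, the urokinase plasminogen activator, read 2339 and 6867 in shCNOT3-1, 1904 and 6474 in shCNOT3-2, and 2002 and 3295 in shNTC. It was thus higher with DOX in shNTC too, by 0.72. On its next brightest probe set the hairpin changes were 1.47 and 1.40, beside 0.84 in shNTC. FGFBP1, a carrier of fibroblast growth factors, was 4.52-fold and 3.33-fold higher, and IL6, the inflammatory cytokine, 3.64-fold and 2.70-fold. MARCHF4, a ubiquitin ligase, had the largest even changes, 3.19 and 3.02, from dim starts. LINC01588, a non-coding RNA, repeated on its other probe set with 1.98 and 2.07. On the lower side, LATS1, the Hippo pathway kinase, read 663 and 211, 803 and 208, and 649 and 578 in the same order of sublines. DEFB1, an antimicrobial peptide, read 3207 and 1071, 4238 and 1325, and 4097 and 3455. AQP3, a water and glycerol channel, had -1.94 and -2.31, but its other probe sets gave -0.29 and -0.12, and -1.27 and -0.82. REST, a repressor of neuronal genes, had -1.47 and -1.91, and ZBTB41 had -1.66 in both. For LATS1 and DEFB1 both DOX arrays with a CNOT3 hairpin were below the other 4.

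Most genes of opposite sign were dim. Of the 31, 24 had a mean log2 of 6 to 7 and 1 had 9 or more. That 1 was C3, the central complement component. It read 882 and 2621 in shCNOT3-1, 1229 and 449 in shCNOT3-2, and 1192 and 603 in shNTC. The array of shCNOT3-1 with DOX was the highest, while shCNOT3-2 and shNTC were both lower with DOX, so C3 in shCNOT3-2 moved as it did in the control subline. ITGB8, an integrin chain that activates TGF-beta, read 138 and 916 in shCNOT3-1, 155 and 71.8 in shCNOT3-2, and 143 and 145 in shNTC. The 4 arrays without knockdown were alike there, and the hairpins lay on either side of them.

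The other direction was led by MASP1, a complement protease, with changes of -3.43 and 1.48, and GALNT5, which starts O-glycans, with -2.23 and 2.34. Both differed already without DOX, at 183 against 65.6 and 128 against 47.3 in the 2 sublines, and the other probe set of MASP1 was lower in both, at -0.66 and -0.99. Without DOX, 12 of the 19 genes of this direction and 5 of the 12 of the other were at least 2-fold apart between the sublines, against 2.88% of all genes. In all 17, the subline with the lower start was the one that went up. The arrays without DOX also enter the changes that set the class, so the rule itself favours this direction. EPOR, the erythropoietin receptor, with -1.59 and 1.5, did not repeat on its 3 other probe sets, whose changes lay between -0.21 and 0.36.

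**Figure D3:**
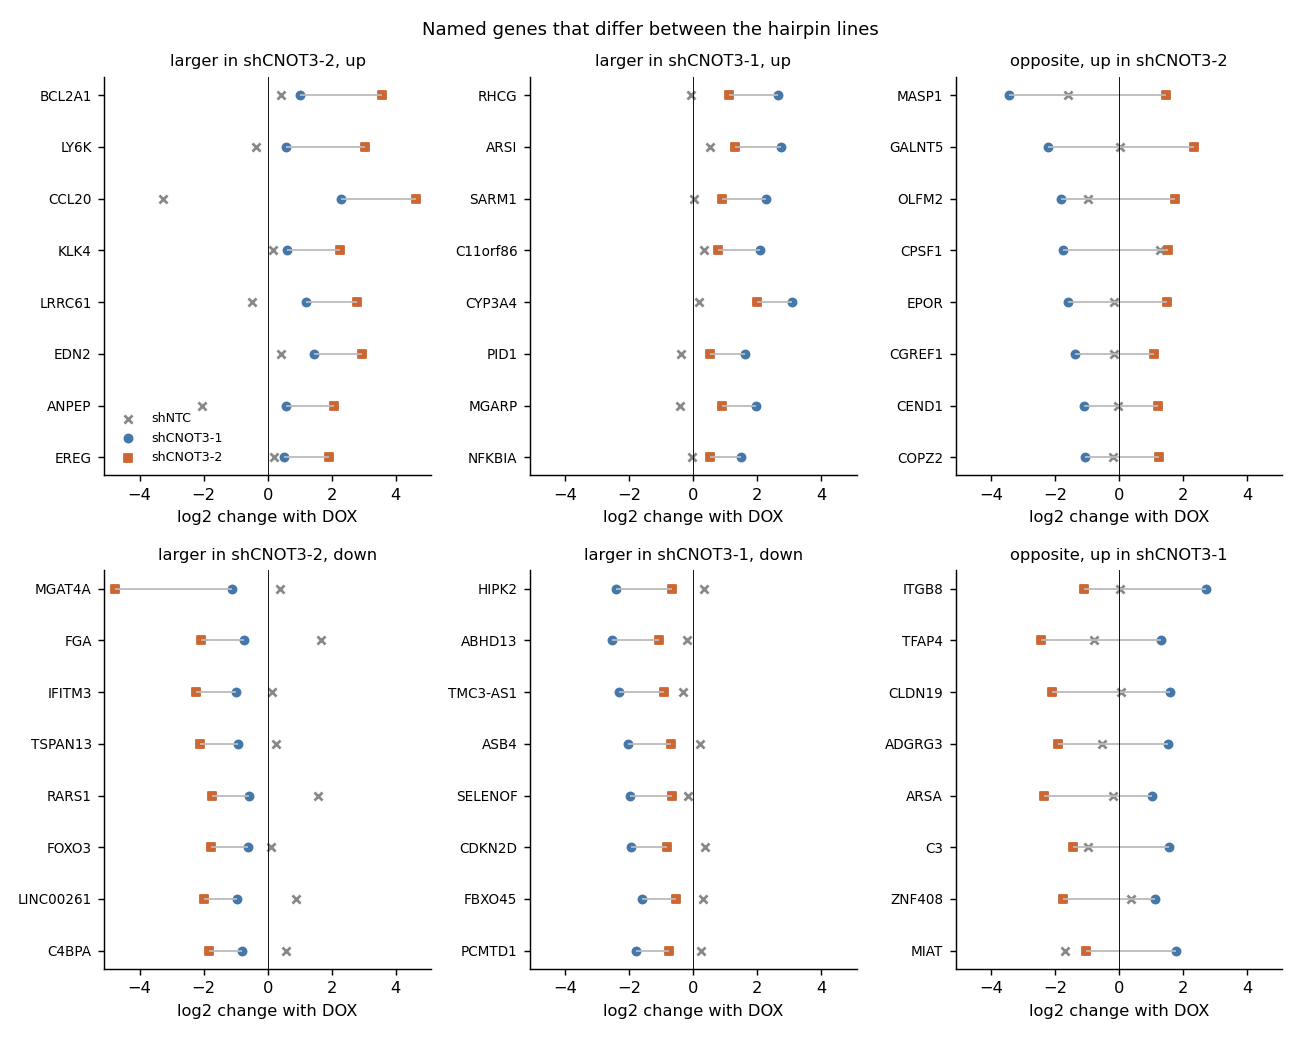
Log2 change with DOX of the 8 leading genes of each class in which the hairpins differed, in shNTC (crosses), shCNOT3-1 (circles) and shCNOT3-2 (squares), 1 pair of arrays per symbol. CCL20 and ANPEP are the plotted genes whose control change ran most strongly against both hairpins.

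Genes past 2-fold in 1 hairpin only, with under 0.25 in the other and under 0.5 in shNTC, were more common than graded ones. With shCNOT3-2 they were 70 higher (0.557%) and 75 lower (0.597%), and with shCNOT3-1 61 higher (0.485%) and 99 lower (0.788%). Of the 99 lower genes of shCNOT3-1, 50 had a mean log2 of at least 9, a limit chosen after seeing the values, and of its 61 higher genes 10 did, beside 7187 of all 12569 genes. In shCNOT3-2 it was 28 of 75 lower and 14 of 70 higher genes. Genes past 2-fold in shNTC only, with 1 hairpin flat, numbered 42 or 50 lower and 24 or 32 higher, with 10 to 15 and 4 at that brightness. Other probe sets repeated the order for 37 of 45 genes lower in shCNOT3-1 only and 23 of 32 lower in shCNOT3-2 only. For the higher genes it was 11 of 17 and 14 of 20, beside 63.1% over all genes. The class itself was repeated in 9 of 45 and 3 of 32 lower genes, and in 0 of 17 and 1 of 20 higher ones.

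Many of the higher genes differed between the sublines from the start. Without DOX, 24 of 70 genes higher in shCNOT3-2 only and 17 of 61 higher in shCNOT3-1 only were at least 2-fold apart. In all of these, the subline with the lower start was the one that went up. Here too the arrays without DOX enter the changes that set the class, so the rule itself favours this direction. Among lower genes it was 6 of 75 and 7 of 99, and among all genes 2.88%. Some brighter genes of these classes were stepwise. GPD2, the mitochondrial glycerol-3-phosphate dehydrogenase, read 3115 and 683 in shCNOT3-1, 2749 and 2704 in shCNOT3-2, and 2970 and 3299 in shNTC. KLHL12, an adaptor of the CUL3 ubiquitin ligase, read 1574 and 362, 1704 and 1623, and 1847 and 1749. FRMD3, a FERM-domain protein, read 831 and 250, 669 and 646, and 779 and 711. In each, 1 array of 6 was low, and the other 5 were close to each other. FRMD3 repeated on both other probe sets, at -1.80 and -0.18, and -2.16 and -0.24. GPD2 and KLHL12 had 1 other probe set each, with -0.37 and 0.19, and -0.13 and 0.43, so the order repeated but not the size. TMEM182, first of the class, did not repeat on 3 others, whose changes in shCNOT3-1 were between -0.13 and 0.04.

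In shCNOT3-2 only, RELL1, a TNF receptor family-like protein, read 2019 and 629, beside 2087 and 2147 in shCNOT3-1 and 1747 and 1985 in shNTC. CTDSP1, a phosphatase that works with REST, read 1098 and 393, beside 1061 and 1141, and 1250 and 1337. ZNF652, a zinc finger repressor, had -1.48 against 0.15, and its 3 other probe sets were all lower in shCNOT3-2, with changes of -0.67 to -1.63. AOPEP, an aminopeptidase, read 4921 and 1492 in shCNOT3-2 but its other probe set gave -0.54 there and -0.69 in shCNOT3-1. On the higher side, RGS2, which shuts off G protein signalling, read 1178 and 3263 in shCNOT3-2, 1476 and 1284 in shCNOT3-1, and 1751 and 1370 in shNTC. AHNAK, a very large scaffold protein, read 1556 and 4015, 1646 and 1567, and 1650 and 2212. For both, the shCNOT3-2 array with DOX was the highest of the 6. SLC49A3 and LOC91450 had the widest differences, but from starts of 5.39 and 23.7 in shCNOT3-2 against 182 and 176 in shCNOT3-1.

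In shCNOT3-1 only, MLXIP, a glucose-sensing transcription factor, read 934 and 2206, beside 1046 and 882 in shCNOT3-2 and 1261 and 1202 in shNTC. Its other probe set gave 0.83 and -0.60. TRAPPC6A, a vesicle tethering subunit, read 864 and 2044, 862 and 738, and 1114 and 819. PRSS3, a trypsin with near-identical relatives, read 306 and 728, 302 and 289, and 330 and 260. The shCNOT3-1 array with DOX was the highest in all 3. HDAC5, a histone deacetylase, with 2.26 and 0.07, started at 68.3 in that subline against 189 in shCNOT3-2 and was lower in both on its other probe set.

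**Figure D4:**
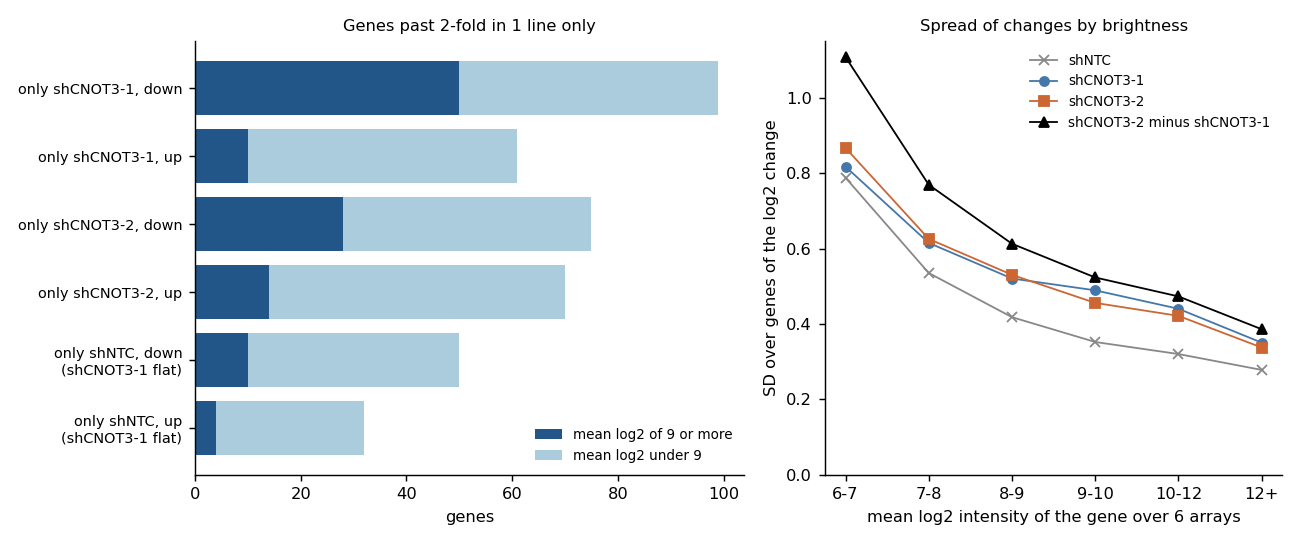
Left, numbers of genes past 2-fold in 1 subline only, split by brightness, with shNTC as the background. Right, SD over genes of the log2 change of each subline and of the difference between hairpins, by mean log2 intensity. The 50 bright genes lower in shCNOT3-1 only form the longest dark bar, and the spread shrinks as genes get brighter.

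Gene lists were read by their members at least 0.5 higher or lower in each hairpin, to be set against the 15.1% and 14.9% of all genes that were higher and the 13% and 12.7% that were lower. Medians over all genes were 0.05 in shCNOT3-1 and 0.02 in shCNOT3-2. The immediate early transcription factors, the first genes switched on by growth signals, leaned most to shCNOT3-2 among lists with at least 8 members measured. Of 21 measured, 8 were higher in shCNOT3-1 and 14 in shCNOT3-2, with medians of 0.28 and 0.95, and 4 and 0 were lower. In shNTC 5 were higher, with a median of 0.21. The median difference between hairpins was 0.475, but 0.280 among genes with a mean log2 of at least 8 and 0.826 without probe sets marked as shared between transcripts. ATF3, a stress factor, read 171 and 159 in shCNOT3-1 and 232 and 478 in shCNOT3-2. KLF6, a zinc finger factor, had -0.56 and 1.01, and NR4A3, an orphan receptor, -0.71 and 1.09. NR4A1 and KLF2 were even, at 1.19 and 1.12, and 1.29 and 1.12, but the next brightest NR4A1 probe set gave 0.18 and 1.38. CCN1 and CCN2, matrix proteins switched on by YAP, were at 0.90 and 1.84, and -0.95 and 1.11, but were higher with DOX in shNTC too, by 1.58 and 1.75. Of 17 ERK feedback genes, 3 and 4 were higher, with medians of 0.23 and 0.29, and DUSP5 was the only one in a graded class. Among EGF receptor family genes, 5 and 3 of 10 were higher.

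NF-kB subunits and feedback genes did not lean to either hairpin: 8 and 7 of 16 were higher, with medians of 0.47 and 0.48 and -0.01 in shNTC. Their members divided, TNIP1 being larger in shCNOT3-2, NFKBIA larger in shCNOT3-1, and NFKBIE, another IkB protein, even at 1.07 and 1.52. RELB and SOD2 were also nearly alike in both, at 0.81 and 0.75, and 0.86 and 0.75. Of 14 chemokines and cytokines, 4 and 6 were higher and 2 and 1 lower. CCL2, the monocyte chemokine, read 1528 and 516 in shCNOT3-1, 1686 and 2701 in shCNOT3-2, and 1986 and 4151 in shNTC. The hairpins thus moved it in opposite directions, by -1.56 and 0.68, with shCNOT3-2 on the side of the control.

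The promoters of 4 genes with different orders of the hairpins are shown, chosen after their values were seen, because each holds a match to the NF-kB consensus motif. They cover the 250 bases before the RefSeq start site in GRCh38.p14: CCL20 on the plus strand of chr2:227813592-227813841, NFKBIA on the minus strand of chr14:35404750-35404999, IL6 on the plus strand of chr7:22726950-22727199, and LCN2 on the plus strand of chr9:128149203-128149452. Capitals mark the match, searched on both strands.
CCL20: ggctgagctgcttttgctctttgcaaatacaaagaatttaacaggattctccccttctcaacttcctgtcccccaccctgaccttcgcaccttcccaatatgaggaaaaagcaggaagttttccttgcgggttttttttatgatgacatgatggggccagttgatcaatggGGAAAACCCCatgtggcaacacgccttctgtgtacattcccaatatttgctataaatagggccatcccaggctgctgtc
NFKBIA: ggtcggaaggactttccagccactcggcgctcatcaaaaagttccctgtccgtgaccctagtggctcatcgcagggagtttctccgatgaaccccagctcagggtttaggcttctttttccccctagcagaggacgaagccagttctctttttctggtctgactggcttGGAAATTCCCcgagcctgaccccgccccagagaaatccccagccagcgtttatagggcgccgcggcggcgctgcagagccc
IL6: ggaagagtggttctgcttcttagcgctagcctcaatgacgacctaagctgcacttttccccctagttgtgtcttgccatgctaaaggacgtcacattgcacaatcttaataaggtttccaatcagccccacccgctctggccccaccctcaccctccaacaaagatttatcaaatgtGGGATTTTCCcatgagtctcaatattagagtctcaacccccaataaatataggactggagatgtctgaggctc
LCN2: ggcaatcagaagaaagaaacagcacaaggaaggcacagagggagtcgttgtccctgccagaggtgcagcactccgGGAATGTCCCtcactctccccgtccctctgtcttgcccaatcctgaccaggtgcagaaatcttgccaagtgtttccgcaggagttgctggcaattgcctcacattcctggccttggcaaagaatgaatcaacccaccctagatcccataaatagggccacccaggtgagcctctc
The match begins 79 bases before the start site in CCL20, 81 in NFKBIA, 73 in IL6 and 175 in LCN2. In the same window 5.21% of 35116 RefSeq promoters hold a match. Counted by gene, with any of a gene's promoters, it is 6.28% of 27305. Of the NF-kB list, 14 of 16 measured genes had a promoter in the table and 9 of these a match in any of their promoters, and of the chemokines and cytokines 8 of 14 and 6. The first list was made of genes of the NF-kB pathway, and neither count is a result about the hairpins. CCL20 was higher with both hairpins and more with shCNOT3-2, NFKBIA more with shCNOT3-1, IL6 evenly, and LCN2 in shCNOT3-1 alone. Both the motif and the differing orders were grounds for choosing these 4 genes. Whether the motif goes with an order was not tested. TNIP1, larger in shCNOT3-2 and looked up too, had 1 match in 1 of its promoters and none in another. BCL2A1 had no match in this window.

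Of 24 liver-type secreted proteins and their factors, 12 were lower in shCNOT3-1 and 15 in shCNOT3-2, with medians of -0.57 and -0.77 and 0.27 in shNTC. APOH, an apolipoprotein, was even at -1.13 and -1.61, and FOXA2, a factor of liver and lung endoderm, had -1.11 and -1.0. CP, ceruloplasmin, read 597 and 741 in shCNOT3-1 and 585 and 234 in shCNOT3-2, and SERPINA3 had 0.74 and -1.17. The 2 changes differed in sign in 8 of the 24 genes, against 5012 of all 12569.

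Over the 12 airway secretory genes measured, the median change was 0.31 and -0.28, beside -0.27 in shNTC. SLPI, a protease inhibitor of airway fluid, read 2757 and 4155 in shCNOT3-1, 2880 and 1168 in shCNOT3-2, and 2182 and 1099 in shNTC. LCN2, an iron-scavenging lipocalin, had 0.79, -1.69 and -0.94 in the same order. For both, shCNOT3-2 and shNTC were lower with DOX and shCNOT3-1 alone was higher. MUC5B, a gel-forming mucin, had -0.48 and -2.46, and AGR2, a mucin-folding enzyme, -1.04 and -0.94. The list's order is not stable to the choice of probe set: leaving out probe sets marked as shared between transcripts put the median difference at 0.00232, from -0.46.

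Of 25 p53 targets, 11 were higher in shCNOT3-1 and 16 in shCNOT3-2, with medians of 0.39 and 0.62 and -0.09 in shNTC. CDKN1A, the p21 inhibitor of CDKs, had 1.30 and 0.99, TIGAR 0.92 and 1.06, and GDF15 1.0 and 0.87. FAS, the death receptor, was higher in shCNOT3-2 alone, at 0.19 and 1.09, and PLK2, a stress kinase, split at -0.38 and 1.02. Of the BCL2 family, 4 and 6 of 14 were higher. BAX, which opens mitochondria, read 1924 and 4920 in shCNOT3-1 and 2078 and 3566 in shCNOT3-2, and BIK was larger in shCNOT3-1 too, at 2.09 and 1.44. The anti-apoptotic BCL2A1 and MCL1 (0.83 and 1.20) leaned to shCNOT3-2, so the family had members on both sides.

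Of 36 ATF4 and amino acid response genes, 7 and 10 were higher and 4 and 0 lower. CHAC1 and CTH were even, at 1.35 and 1.18, and 1.26 in both, while DDIT3 had -0.08 and 0.67 and ALDH1L2 -1.02 and 0.41. Of 24 unfolded protein response genes, 8 and 2 were lower and 2 and 0 higher, with medians of -0.25 and -0.24, and 0.08 in shNTC. XBP1, its transcription factor, had -1.25 and -0.85, and DNAJB11, an ER chaperone, -1.17 and -0.09. Of 29 interferon-stimulated genes, 5 and 3 were higher and 6 and 3 lower, so IFITM2 and IFITM3 were not typical of the list. The related IFITM1 had the other order, at -1.02 and -0.04.

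Cell cycle lists had slightly negative medians in all 3 sublines. Of 48 DNA replication genes, 10 and 8 were lower and none higher, with medians of -0.28, -0.22 and -0.18 in shNTC, and of 45 mitosis genes 5 and 5 were lower. FEN1, a flap nuclease, had -1.03 and -0.89, CCNE2, a cyclin of S phase entry, -1.21 and -0.91, and POLD3, a polymerase subunit, -1.0 and -0.04. Histone genes parted: of 27 measured, 7 were higher in shCNOT3-1 and 1 in shCNOT3-2, and 1 and 10 were lower, with medians of 0.28 and -0.28. H2AC6 read 1260 and 2009 in shCNOT3-1 and 1129 and 433 in shCNOT3-2, and H2BC21 had 1.08 and -0.78. Many histone genes are near-copies of each other and most mRNAs of the clusters lack a poly(A) tail, so the reading of single members is uncertain. Only 4 of the 27 had the higher change in shCNOT3-2.

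ZNF zinc finger genes, a large family, mostly of DNA-binding repressors, were lower in 68 of 293 with shCNOT3-1 and in 97 with shCNOT3-2, with medians of -0.09 and -0.24. ZNF107 and ZNF670 were lower in both, at -0.95 and -1.36, and -0.97 and -1.26. Only 114 of the 293 had the higher change in shCNOT3-2, against 5997 of all 12569 genes. Of 73 respiratory chain genes, 1 and 6 were lower, with medians of 0.00 and -0.19. UQCR10, a subunit of complex III, had -0.03 and -0.76, while NDUFA5, of complex I, had -1.09 and -0.01. The median change of sterol and fatty acid genes was 0.32 and 0.04, beside 0.20 in shNTC, and that of lysosome and autophagy genes 0.22 and 0.04. DHCR7, the last enzyme of cholesterol synthesis, had 1.01 and 0.82, and NPC1, the lysosomal cholesterol exporter, 1.18 and 1.33. The next brightest NPC1 probe set gave -0.06 and -0.07. WIPI1, an autophagy protein, was higher in shCNOT3-1 alone, at 1.20 and -0.06. Cytosolic and mitochondrial ribosomal protein genes had medians of 0.04 and 0.02, and of 0.14 and 0.16.

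The median difference between hairpins was -0.08 over the CCR4-NOT subunits and 0.02 over the decapping and decay factors, though single members differed. Of 11 CCR4-NOT subunits, CNOT3 was the only one at least 0.5 lower in either hairpin. CNOT6L, a catalytic subunit, had 0.12 and 0.82, and CNOT11, of the CNOT10 module, 0.52 and -0.26. Of 25 decapping and decay factors, 2 and 2 were higher and 5 and 6 lower. DCP2, the decapping enzyme, was even at -1.01 and -1.26, but its other probe sets gave 0.35 and -0.08, and -0.53 and -1.34. PUM2, a Pumilio protein, read 3602 and 1526 in shCNOT3-1 and 3660 and 3075 in shCNOT3-2, and CPEB4, a poly(A) regulator, was larger in shCNOT3-1 at -1.54 and -0.97. ZFP36, which brings the complex to AU-rich mRNAs, had -0.36 and 0.55. The BTG and TOB proteins, which bind the complex, included BTG1 at 0.83 and -0.19. Over the 4 of them measured, the median difference between hairpins was -0.62. Of the ID proteins, which block DNA binding by helix-loop-helix factors, ID2 had -1.56 and 0.61, ID1 0.83 and 0.61, and ID3 1.09 and 1.24. ADM, a vasodilator peptide, had -1.14 and 0.52, with 1.43 in shNTC.

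**Figure D5:**
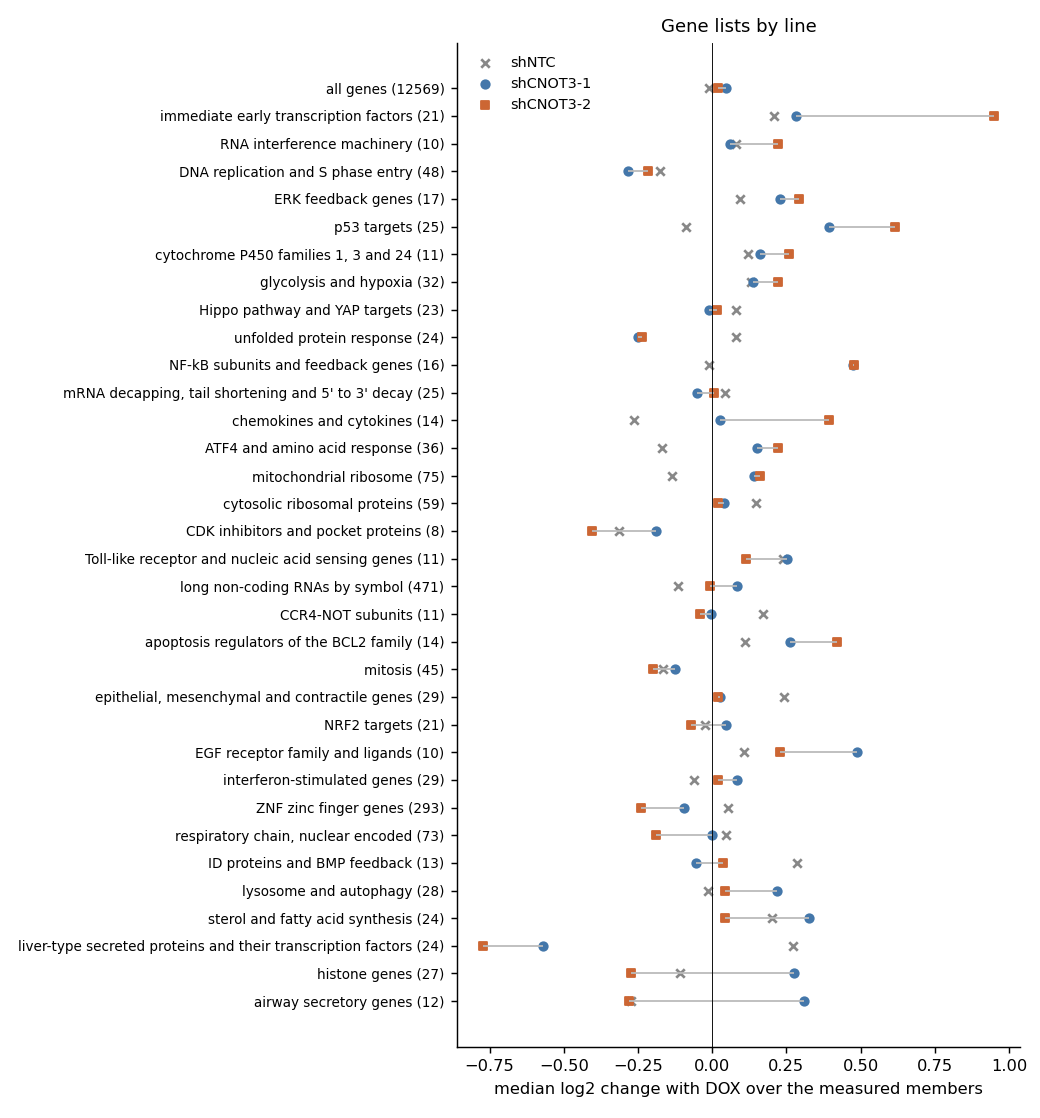
Median log2 change with DOX over the measured members (number in brackets) of each gene list with at least 8, in shNTC (crosses), shCNOT3-1 (circles) and shCNOT3-2 (squares), ordered by the median difference between hairpins. Immediate early factors have the longest bar to the right, and airway secretory and histone genes, at the bottom, have bars that cross 0.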

How the data were processed

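Total RNA of 6 cultures was labelled and hybridised to Affymetrix arrays of 54675 probe sets, 1 array per line and DOX state. The authors deposited a linear intensity for each probe set, computed by MAS5 according to the submitters' processing notes. Every array had a mean of 500.1 once 2% of its values were trimmed from either end, and 202 to 376 probe sets lay at the lowest value, 1. The number of arrays limits the precision.

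Log2 was taken after adding 1, which shrinks the changes of dim genes. Genes were named through the platform annotation: 41097 probe sets had 1 gene, 1801 several and 11777 were not listed, and 41043 symbols were updated through the gene identifier. No test was run, since 1 pair of arrays per line leaves nothing to estimate error from. "Called" means past a fold. The genes named were CNOT3, the 8 of widest difference per class (for the even class, of largest smaller change) with log2 of at least 7 on the brighter array of each knockdown line, and up to 4 widest and 4 most shared members of each of 36 lists. Members and lists were chosen with earlier results of these data known. The sorting was tested on simulated data. Promoters came from a RefSeq table of GRCh38.p14. Alternatives covered the added constant, the scaling, the brightness limit, the probe set and the step. Python 3.11.15, pandas 2.3.3, numpy 2.4.6 and matplotlib 3.10.9 were used.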

Additional observations from a re-analysis of the deposited data

Results flagged for a closer look

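The following genes were at least 2-fold higher in 1 knockdown subline and at least 2-fold lower in the other. The difference was not tested in any of them, since each line has 1 pair of arrays. As the log2 change of shCNOT3-2 minus that of shCNOT3-1, it was 4.90 for MASP1, 4.57 for GALNT5, 3.58 for OLFM2, 3.29 for CPSF1, 3.09 for EPOR, 2.48 for CGREF1, 2.32 for CEND1 and 2.29 for COPZ2. In the other direction it was -3.82 for ITGB8, -3.74 for TFAP4, -3.68 for CLDN19, -3.42 for ADGRG3, -3.36 for ARSA, -3.02 for C3, -2.86 for ZNF408 and -2.80 for MIAT. C3 was the brightest of these, with a mean log2 of 9.95, and EPOR the next, with 8.50.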

How the results depend on the processing

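No paired analysis was possible because the labels carry no replicate numbers and each line has 1 pair of arrays. Of 604 values of named genes over the alternatives, 574 stayed within the spread of the control change among genes of like brightness, 26 moved by more and 4 reversed. A change of the brightness limit cannot alter the value of a gene that is kept, and equal medians shift all genes alike. The 96 values with no limit, 43 at a limit of 8 and 96 with equal medians, all the same, therefore say little. As a mean of a gene's probe sets, 76 were the same, 19 moved and 1 reversed. Without probe sets ending in _x_at or _s_at, the hairpin difference turned to -0.331 for MASP1, 0.143 for AOPEP and 1.90 for ACAD10, and for ACAD10 it was 0.00572 as a mean of its probe sets. Without those probe sets CNOT3 had -2.13 in shCNOT3-1 and a difference of -0.0959.

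The brightness limit set the counts. In the order larger in shCNOT3-2, larger in shCNOT3-1, even, opposite, shCNOT3-2 only and shCNOT3-1 only, each higher (for opposite, higher in shCNOT3-2) then lower, no limit gave 254 and 167, 240 and 187, 212 and 130, 363 and 327, 155 and 149, and 145 and 179 genes. A mean log2 of at least 8 gave 15 and 25, 15 and 30, 22 even higher, 1 and 1, 21 and 37, and 20 and 59. A step of 1 gave 17 and 14, and 13 and 12. Over all settings 69 of 96 counts were within 1.5 times. Pearson's r of the hairpins was 0.0851 with no limit and 0.370 at 8, and the share of repeated orders 57.9% with no limit.

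List medians of the hairpin difference stayed within their spread in 74 of 91. At 8 they were 0.280 for immediate early, -0.683 for liver-type and -0.830 for airway genes. With no limit they were -0.805 for airway, -0.250 for histone and -0.117 for ZNF genes. Without _x_at and _s_at probe sets they were 0.826 for immediate early, 0.00232 for airway and -0.121 for ZNF genes, and as a mean of probe sets -0.119 for ZNF genes. Setting array medians equal lowers every difference by 0.11 and gave -0.288 for respiratory chain, -0.277 for ZNF, -0.396 for sterol, -0.0552 for unfolded protein response, -0.140 for mitochondrial ribosome, 0.00618 for DNA replication and -0.196 for mitosis genes. The cause of the other shifts was not tested.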
